A study of Mus musculus with 200 samples.

Results

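The transcripts described here encode 8 proteins that work with RNA polymerase II as it starts genes or moves along them. These are the 4 subunits of the negative elongation factor NELF (Nelfa, Nelfb, Nelfcd, Nelfe), the DSIF subunit Supt5, the 2 subunits of the histone chaperone FACT (Ssrp1, Supt16) and the initiation factor Gtf2b. They were taken by gene symbol, with earlier results of these data known. All 8 were present in every deposited table, which held 25006 or 25229 genes. The study addressed which chromatin and transcription regulators the mouse embryo needs around implantation. It measured polyadenylated RNA in 200 libraries, each amplified over 17 cycles from about 10 to 100 cells, and reported TPM, a level scaled for transcript length and for the total of the library. Most libraries came from epiblast (Epi) of embryos grown in 3D culture.

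A screen in 10 batches held control Epi and Epi knocked out for a factor by C-CRISPR, a method that cuts a gene with several guides. Its 40 perturbed groups carried these labels. Batch 1 held Aurkb, Nelfb, Snai1, Ss18 and Ssrp1. Batch 2 held Ascl2, Cxxc1, Elf5, Ets2, Lmo2, Mcrs1 and Suz12. Batch 3 held Atrx, Cbx2, Cbx7, Jarid2 and Rnf2, and batch 4 held Kdm6a, Myc, Otx2 and Tfap2c. Batch 5 held Ezh2, Kdm6b and Zfp57, batch 6 held Zbtb17, and batches 7 and 8 each held Bend3. Batch 9 held Ovol2, Smad2, Sox4, Wt1 and Zfp281, and batch 10 held Chd4, Fos, Gtf2b, Hdac13, Hsf2, Junb, Mbd3 and Mta2. The label Hdac13 matches no gene symbol and stands for the double knockout of Hdac1 and Hdac3. Most groups had 3 libraries; the Ascl2 group and the batch 7 controls had 2. The screen libraries were labelled as stage E5.0, although the titles of batch 8 gave 6.0. Separate tables held wild-type and Suz12 Eed double knockout Epi and primitive endoderm (PrE) at E5.0, 3 libraries a group. Others held control and GSK-J4-treated Epi at E4.5 and at E5.0, 3 libraries a group, where GSK-J4 is an inhibitor of the H3K27 demethylases and blastocysts were treated at 50 µM for the E5.0 series. A Zbtb17 table at E4.5 had titles that said knockout and a treatment label that said dTAG; a Zbtb17 dTAG table at E5.0 held 3 treated and 3 control libraries. Finally, wild-type and Zbtb17 knockout EB cultures were sampled on days 0, 1, 2 and 3, with 2 libraries a group. The knockout EB titles all carried the same code, so a knockout effect cannot be told apart from a difference between cell lines. The sources state biological replicates but not which embryos each library pooled, so the p-values measure the spread between these libraries.

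Soon after starting a gene, RNA polymerase II is held in place by DSIF and NELF, and it moves on when the kinase P-TEFb phosphorylates both and NELF leaves. NELF is a complex of 4 subunits, in which Nelfa and Nelfcd form one lobe and Nelfb and Nelfe the other; Supt5 stays with polymerase as a positive factor after NELF has gone. FACT opens nucleosomes ahead of polymerase and rebuilds them behind it, with Supt16 and Ssrp1 as its subunits. Gtf2b, the transcription factor TFIIB, bridges the TATA-binding protein and polymerase before initiation.

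In the GENCODE M21 annotation of GRCm38, the submitters' mm10 build, Nelfa lies at chr5:33897916-33936413 on the minus strand and Nelfb at chr2:25199712-25211489 on the minus strand. Nelfcd lies at chr2:174415804-174427502 and Nelfe at chr17:34850391-34856372, both on the plus strand. Supt5 lies at chr7:28314891-28338746 on the minus strand. Ssrp1 lies at chr2:85037234-85047109 on the plus strand and Supt16 at chr14:52160414-52197416 on the minus strand. Gtf2b lies at chr3:142765045-142783606 on the plus strand. All 8 are protein coding. The largest overlap was that of Supt16, which shared 1057 exonic bases, or 21.0% of its exonic length, with Rpgrip1 on the opposite strand; Supt5 shared 7.5% with the antisense gene Gm44709. Strand-specific counting is not given in the sources used here, so reads from these pairs may not have been told apart.

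RefSeq promoters (GRCm38.p6) were at hand for 6 of the 8 members, all but Nelfcd and Nelfe. The 250 bases before the RefSeq start are shown for Nelfa and Supt16, whose levels moved in opposite directions between the cell types. They are also shown for Gtf2b, the only member that changed in the libraries labelled Nelfb knockout. For each of these genes the RefSeq start lies inside the GENCODE span given above, so part of the window is within the annotated gene. Capitals mark any match, on either strand, to 6 motifs. The GC box, to which Sp1-type factors bind, was searched as GGGCGG. The CCAAT box was searched by the letters of its name. The TATA box, the site of the TATA-binding protein, was searched as TATAAA. The E-box, a site of Myc-type factors, was searched as CACGTG. The ETS core was searched as CCGGAAG, and the site of YY1-type factors as AAGATGGC. The Nelfa window is chr5:33936272-33936521 on the minus strand, that of Supt16 chr14:52197240-52197489 on the minus strand, and that of Gtf2b chr3:142764997-142765246 on the plus strand.
Nelfa: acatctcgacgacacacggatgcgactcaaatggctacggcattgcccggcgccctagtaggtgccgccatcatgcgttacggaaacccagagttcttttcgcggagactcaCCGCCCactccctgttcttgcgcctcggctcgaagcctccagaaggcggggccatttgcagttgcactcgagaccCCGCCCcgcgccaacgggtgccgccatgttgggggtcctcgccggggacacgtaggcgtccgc
Supt16: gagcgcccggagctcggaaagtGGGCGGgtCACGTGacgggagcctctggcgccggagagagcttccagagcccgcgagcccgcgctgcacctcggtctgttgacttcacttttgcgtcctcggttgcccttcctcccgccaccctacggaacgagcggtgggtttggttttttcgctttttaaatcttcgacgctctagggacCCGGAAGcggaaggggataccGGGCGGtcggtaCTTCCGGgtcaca
Gtf2b: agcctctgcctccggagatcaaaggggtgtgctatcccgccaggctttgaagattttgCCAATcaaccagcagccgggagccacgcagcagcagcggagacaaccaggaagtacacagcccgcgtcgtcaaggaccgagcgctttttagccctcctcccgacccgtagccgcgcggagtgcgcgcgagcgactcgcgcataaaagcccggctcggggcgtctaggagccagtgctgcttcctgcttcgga
The Nelfa window held 2 GC boxes. The Supt16 window held 2 GC boxes, 1 E-box and 2 ETS cores, and no matches overlapped. The Gtf2b window held 1 CCAAT box and none of the other 5 motifs. Among 32851 promoter windows of the same length, 32.7% held a GC box, 33.8% a CCAAT box, 12.4% a TATA box, 6.0% an E-box, 6.9% an ETS core and 1.6% the YY1-type motif.

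Libraries differed in how much of the transcriptome they held. Outside the Zbtb17 E4.5 table and EB day 0, libraries had between 7236 and 13512 genes at 1 TPM or more; the Zbtb17 E4.5 table had 3986 to 4952 and EB day 0 had 5970 to 6983. The files give no read counts, so depth is unknown. Among the PrE controls, replicates 1 and 2 correlated at an r of 0.997 and were averaged into 1 library for the tests. The 3 Aurkb libraries were averaged too and could not be tested. The 2 EB libraries of each group were kept apart, although they correlated at an r of 0.993 to 0.997, near that of the averaged PrE pair. Of 37 screen knockouts whose own target could be tested, 7 had it lower, 3 higher (Cxxc1, Myc and Bend3 in batch 7) and 27 did not pass. Suz12 and Eed were lower in both tissues of the double knockout, and Zbtb17 was lower in the knockout EB on days 1, 2 and 3. Epiblast markers were detected in the Epi libraries, but the Epi libraries also held trophectoderm and extraembryonic ectoderm markers, at a summed 1520 to 1653 TPM in the Suz12 Eed control Epi and 3930 to 4200.4 TPM in the E5.0 GSK-J4 controls. In bulk libraries, fewer cells of a type and less RNA per cell cannot be told apart.

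In the control Epi of the Suz12 Eed table, the FACT subunits were the most abundant of the 8 and Nelfb and Supt5 the least. The 3 control Epi libraries gave Supt16 levels of 188, 177 and 239.6 TPM. Ssrp1 followed at 103, 138 and 105 TPM. The ranges of these 2 did not overlap. Nelfe (76.9 to 98.6 TPM) and Nelfcd (63.2 to 86.6 TPM) overlapped each other and lay below Ssrp1. Gtf2b (32.6 to 52.1 TPM), Nelfa (31.3 to 63.4 TPM), Supt5 (19.3 to 39.4 TPM) and Nelfb (14.8 to 32.9 TPM) came next, with neighbours that overlapped. The highest Nelfa library was also just above the lowest of Nelfcd. Among the NELF subunits, mean Nelfe was 87.0 ± 10.9 TPM and mean Nelfb 22.3 ± 9.41 TPM (SD, n = 3), so the transcripts of the 4 subunits were not present in equal amounts. The E5.0 control Epi of the GSK-J4 table had the same order for the first of these, with Supt16 at 183, 173 and 167 TPM and Ssrp1 at 112, 114 and 120 TPM. The order was not the same in all screen controls at E5.0. In batch 3 mean Gtf2b was 104.7 ± 14.2 TPM and mean Ssrp1 64.9 ± 10.1 TPM (SD, n = 3), and in batch 7 Supt5 had the highest mean of the 8. In the E4.5 controls Supt16 was instead at 40.2, 32.3 and 24.7 TPM, below Ssrp1 at 90.6, 102 and 99.3 TPM. E4.5 and E5.0 come from different tables, so the stages were not tested against each other. Control Epi at these stages also differed in summed PrE markers, given below with GSK-J4, and their part was not tested.

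Across the 10 batches of control Epi in the screen, 6 members varied 3.37 to 6.41 times between batch means, and Nelfb and Supt5 varied more. Mean control Nelfb, the NELF subunit whose gene was itself a target, ran from 4.59 TPM in batch 7 to 85.9 TPM in batch 8, an 18.7-fold range. Supt5 ran from 12.5 TPM in batch 1 to 153 TPM in batch 7, a 12.3-fold range. Without batches 7 and 8, these ranges narrowed to 10.9 to 36.9 TPM for Nelfb and 12.5 to 31.2 TPM for Supt5. Supt16 had its lowest mean in batch 7 (44.2 TPM) and its highest in batch 6 (283 TPM). Gtf2b was lowest in batch 10, at 27.2 TPM against a median of 76.4 TPM over the 10 batch means. The batch 7 libraries held 7236 to 8383 genes at 1 TPM or more, and the batch 8 controls had trophectoderm markers at a summed 359 to 537 TPM against 2320 to 3202 TPM in batch 10. In the batch 7 controls the 10 most abundant genes made up 27.1 and 24.1% of the TPM, against 7.51 to 7.60% in the batch 1 controls. The part of these features in the member levels was not tested. Because of these spans, each knockout was compared only with the controls of its own batch.

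**Figure D1:**
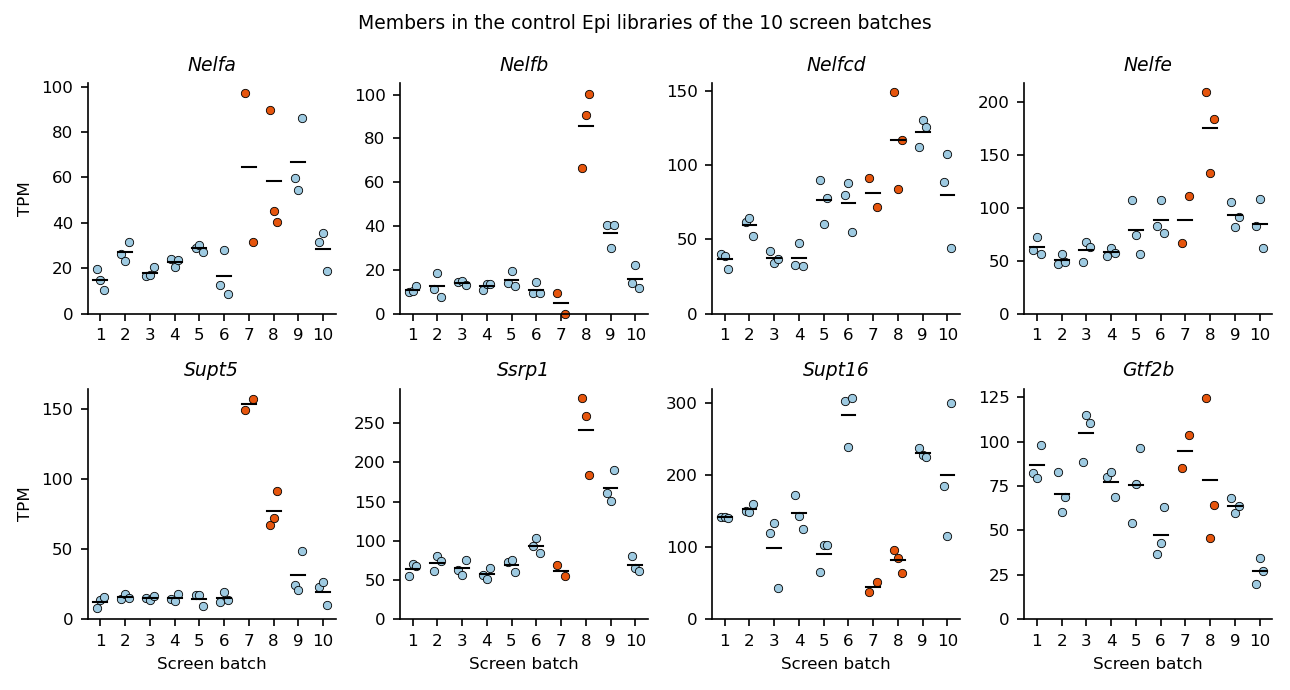
TPM (vertical axes, from 0) of each member in the control Epi libraries of the 10 screen batches (horizontal axes); points are libraries, bars are batch means, and batches 7 and 8 are in orange. Supt5 stands at 149 and 157 TPM in batch 7, above every library of the other batches, and Nelfb at 66.5 to 100.3 TPM in batch 8.

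The labels of 3 screen groups carried the name of a member, and in none of them did the targeted transcript pass the test. Nelfb stood at 15.2, 13.8 and 26.7 TPM in the libraries labelled Nelfb knockout and at 9.99, 10.3 and 12.5 TPM in the batch 1 controls. The labelled libraries were all above the controls (log2 change of TPM + 1 0.66 ± 0.43 SE, adjusted p = 0.298). Ssrp1 stood at 69.1, 46.2 and 73.1 TPM under the Ssrp1 label and at 54.9, 70.1 and 67.7 TPM in the controls. These groups overlapped (log2 change -0.05 ± 0.21, 95% interval -0.46 to 0.36, adjusted p = 0.936). Gtf2b stood at 10.1, 22.0 and 26.4 TPM under the Gtf2b label and at 19.5, 34.7 and 27.4 TPM in the batch 10 controls. These overlapped as well (log2 change -0.53 ± 0.28, adjusted p = 0.214), and after quantile normalization the change was -0.75 with adjusted p = 0.0454. A gene cut by Cas9 can still be transcribed, so the transcript level alone does not tell whether the protein was lost.

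**Figure D2:**
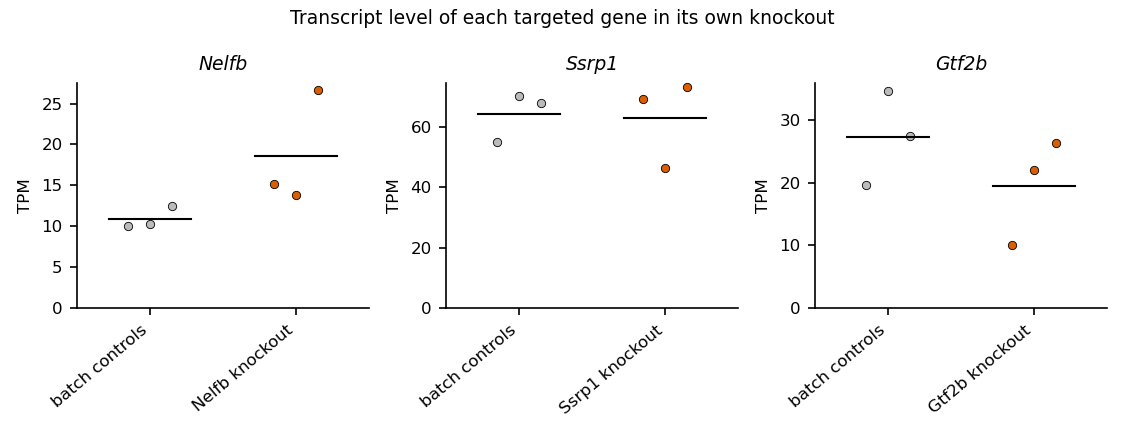
TPM (vertical axes, from 0) of Nelfb, Ssrp1 and Gtf2b in the libraries that carry each gene's knockout label (orange) and in the controls of the same batch (grey); points are libraries and bars are means. Nelfb is at or above 13.8 TPM under its own label, and no targeted gene passed the test.

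The libraries labelled Nelfb knockout had 1 of 8 members changed, where 21.4% of all tested genes changed. It was Gtf2b, at 134, 165 and 204 TPM against 82.6, 79.4 and 98.2 TPM in the controls. Every labelled library was above every control (log2 change 0.93 ± 0.28, adjusted p = 0.00813); without knockout replicate 3 the change was 0.78 and the call was lost (adjusted p = 0.0512). Supt16 was at 78.7, 113 and 110.5 TPM against 142, 143 and 141 TPM (log2 change -0.51, adjusted p = 0.167). Of the general initiation factors other than Gtf2b, 7 of 29 tested rose and 3 fell. Taf7, a TFIID subunit, rose from 89.9 ± 5.67 to 161 ± 36.8 TPM (log2 change 0.81 ± 0.14, adjusted p = 3.40e-06), and Gtf2f1, the large subunit of TFIIF, rose by a log2 0.79. Among elongation factors 1 of 21 rose and 2 fell; Supt4a, which encodes the partner of Supt5 in DSIF, fell from 433 ± 16.5 to 261 ± 50.3 TPM (log2 change -0.74 ± 0.13, adjusted p = 4.92e-06). Among the histone chaperones Npm1 fell (log2 change -0.83) and Chaf1b, a subunit of the replication-coupled chaperone CAF-1, rose (log2 change 1.12). PrE markers moved with these changes: their sum over 12 genes was 621 to 644 TPM under the Nelfb label and 70.6 to 79.4 TPM in the controls, 9 of 11 tested markers rose and 1 fell, and Hnf4a was at 0 in the labelled libraries. Their part in the changes above was not tested.

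Under the Ssrp1 label 0 of 8 members passed the limma test, where 6.61% of all tested genes changed, and 1 member, Nelfb, had an unadjusted p under 0.05 (33.7, 13.3 and 30.6 TPM against 9.99, 10.3 and 12.5 TPM; adjusted p = 0.132). FACT's other subunit Supt16 was at 106, 104 and 99.3 TPM against 142, 143 and 141 TPM, with every labelled library below every control (log2 change -0.46 ± 0.26, adjusted p = 0.353). The same 3 control libraries served the Nelfb and Ssrp1 labels. Among other chaperones Daxx, which deposits histone H3.3, rose from 9.07 ± 0.937 to 28.3 ± 5.62 TPM (log2 change 1.53, adjusted p = 8.14e-04), and Npm1 fell (log2 change -0.52).

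Under the Gtf2b label 0 of 8 members passed the limma test, where 15.4% of all tested genes changed. Only Nelfe had an unadjusted p under 0.05, at 83.8, 48.0 and 41.7 TPM against 82.7, 108 and 62.2 TPM (log2 change -0.57 ± 0.24, adjusted p = 0.0986). Of 29 other initiation factors 2 rose and 1 fell: Taf7 and Taf13, both TFIID subunits, rose by a log2 0.45 and 0.81, and Cdk7, the kinase of TFIIH, had a log2 change of -0.54 (adjusted p = 0.0244). The polymerase subunit Polr2h went from 418 ± 56.9 to 283 ± 24.5 TPM (log2 change -0.56 ± 0.13, adjusted p = 4.68e-04). Of 17 histone chaperones 5 fell and 1 rose, with Npm1 (log2 change -1.06) and Set (log2 change -0.64) among those that fell. Trophectoderm markers summed to 7398 to 7906 TPM under the Gtf2b label and 2320 to 3202 TPM in the controls, and PrE markers to 178 to 223 TPM against 5.14 to 14.3 TPM; their part was not tested.

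Most members differed between the 2 cell types. In control PrE against control Epi, 7 of 8 members changed, where 56.4% of all tested genes did, and 6 of the 7 were lower in PrE, where 37.9% of all tested genes were. The 4 NELF subunits, Supt5 and Ssrp1 were lower and Supt16 was higher, so the 2 FACT subunits went in opposite directions. The median change was -1.66 over the members and -0.46 over all genes tested.

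Nelfa, which with Nelfcd forms one lobe of NELF, was at 31.3, 63.4 and 32.5 TPM in control Epi and at 2.17, 2.57 and 3.88 TPM in control PrE. The groups lay far apart (log2 change -3.34 ± 0.35, adjusted p = 1.60e-06). Nelfcd was at 63.2, 82.5 and 86.6 TPM in Epi and 12.4, 12.6 and 13.9 TPM in PrE (log2 change -2.46 ± 0.30, adjusted p = 6.45e-06). Nelfe, the RNA-binding subunit, had PrE levels of 24.7, 27.2 and 17.7 TPM, all below the lowest Epi library (log2 change -1.97 ± 0.21, adjusted p = 2.33e-06). Nelfb was at 3.75, 4.29 and 7.44 TPM in PrE (log2 change -1.77 ± 0.39, adjusted p = 0.00138), and Supt5 at 8.32, 9.62 and 9.68 TPM (log2 change -1.34 ± 0.31, adjusted p = 0.00182). Ssrp1 was at 35.9, 43.7 and 37.1 TPM in PrE against 103 to 138 TPM in Epi (log2 change -1.55 ± 0.27, adjusted p = 1.89e-04). Supt16 was at 291, 270.1 and 333 TPM in PrE, above all 3 Epi libraries (log2 change 0.61 ± 0.18, adjusted p = 0.0103). That call was lost without PrE control replicate 3 (log2 change 0.49, adjusted p = 0.103). Gtf2b did not pass, with 25.9, 31.4 and 38.6 TPM against 32.6, 52.1 and 47.1 TPM (adjusted p = 0.230).

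Other parts of the machinery also differed in control PrE, where 37.9% of all tested genes were lower. Control PrE means and SDs of TPM here take replicates 1 and 2 as the averaged library, so each SD is over 2 values. Of 13 polymerase II subunits 9 fell and 1 rose, with Polr2c going from 302 ± 18.9 to 68.3 ± 12.9 TPM. Of 29 initiation factors 18 fell and 2 rose; Taf6, a histone-fold subunit of TFIID, went from 42.8 ± 12.1 to 3.83 ± 3.44 TPM (log2 change -3.36 ± 0.39, adjusted p = 4.93e-06). Of 14 Integrator subunits 9 fell and none rose. Integrator cleaves RNA at paused polymerase, and its catalytic subunit Ints11 went from 127 ± 15.1 to 15.6 ± 10.3 TPM (log2 change -3.09). Of 8 P-TEFb genes 4 fell, among them the kinase Cdk9 (log2 change -1.67), and 1 rose. Of 24 elongation factors 9 fell and 3 rose, with a median log2 change of -0.37 against -0.46 over all genes. Of 18 histone chaperones other than FACT 13 fell and none rose, Npm1 and Chaf1b included. After quantile normalization the median over all genes moved by 0.35, and the 7 members kept their directions and calls. All 12 PrE markers were higher and 8 of 10 epiblast markers lower in PrE, as the labels have it.

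**Figure D3:**
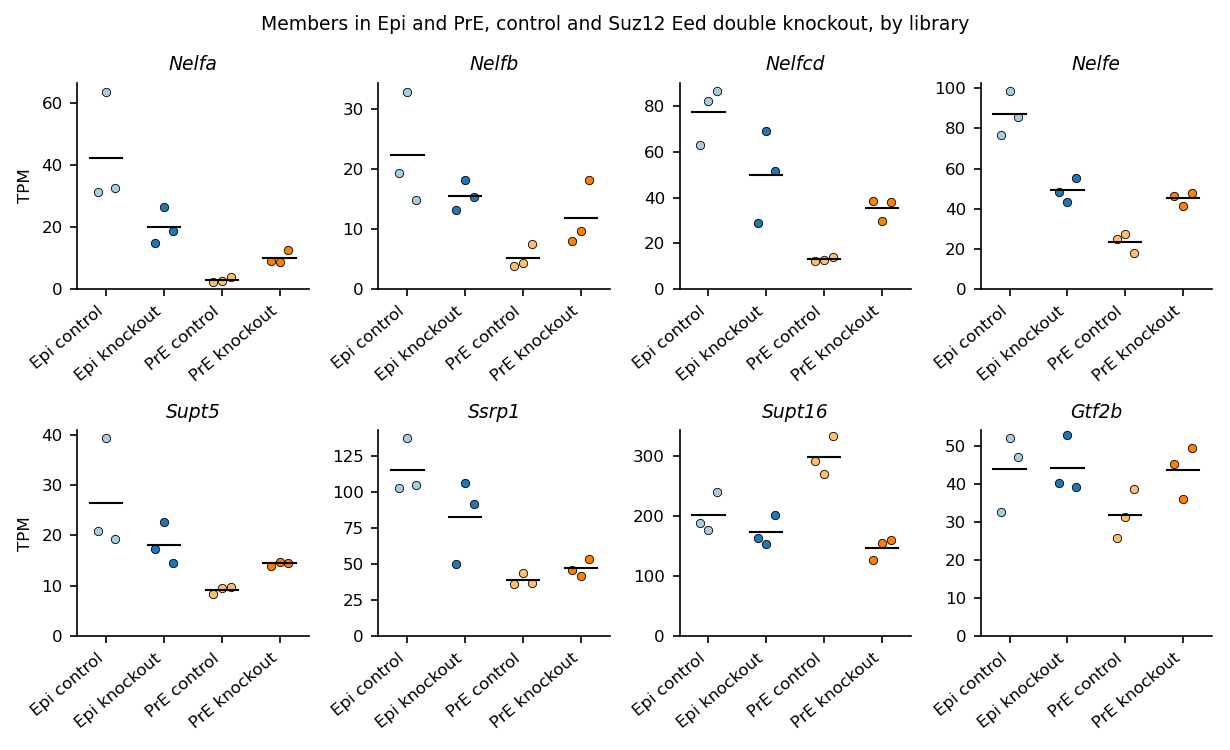
TPM (vertical axes, from 0) of each member in control and Suz12 Eed double knockout libraries of Epi and PrE; points are the 3 libraries of each group and bars are their means, with PrE control replicates 1 and 2 shown apart. Nelfa, Nelfcd and Nelfe are lower in the Epi knockout and higher in the PrE knockout on average, while Supt16 is highest in control PrE.

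Suz12 and Eed are core subunits of PRC2, the H3K27 methyltransferase, and their double knockout affected 3 NELF transcripts differently in the cell types. In PrE 4 of 8 members changed, where 26.6% of all tested genes did: Nelfa, Nelfcd and Nelfe rose and Supt16 fell. Nelfcd went from 12.4, 12.6 and 13.9 to 38.4, 29.7 and 38.0 TPM (log2 change 1.35 ± 0.30, adjusted p = 0.00390). Nelfa went from 2.17, 2.57 and 3.88 to 8.82, 8.78 and 12.4 TPM (log2 change 1.42 ± 0.35, adjusted p = 0.00806). Nelfe went from 24.7, 27.2 and 17.7 to 46.2, 41.4 and 48.0 TPM (log2 change 1.04 ± 0.21, adjusted p = 0.00261). Every knockout library of these 3 genes was above every control. Supt16 went from 291, 270.1 and 333 to 127, 154 and 160.5 TPM, all below the controls (log2 change -1.05 ± 0.18, adjusted p = 7.95e-04). Over all genes the median change was 0.40 as deposited and 0.02 after quantile normalization, under which these 4 calls remained, with log2 changes of 0.96, 0.95, 0.64 and -1.15 in the order given. The Nelfa call was lost without the averaged PrE control library (1.16, adjusted p = 0.0739) and that of Nelfe without PrE control replicate 3 (0.78, adjusted p = 0.0528).

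In Epi 1 of 8 members changed in the double knockout, where 9.13% of all tested genes did. It was Nelfe, at 48.5, 43.5 and 55.3 TPM against 76.9, 98.6 and 85.5 TPM (log2 change -0.81 ± 0.19, adjusted p = 0.0162). The groups did not overlap, but the call was lost without Epi control replicate 2 (-0.72, adjusted p = 0.0681) and without knockout replicate 2 (-0.73, adjusted p = 0.0562). Nelfa was at 14.8, 26.6 and 18.8 TPM against 31.3, 63.4 and 32.5 TPM with no overlap (95% interval of the log2 change -1.67 to -0.33, adjusted p = 0.0586). With the replicate numbers as a block, 2 members were called in Epi instead of 1, Nelfa being the second. The difference between the tissues was itself tested, and 4 of 8 members passed, where 19.1% of all tested genes did. The PrE effect exceeded the Epi effect by a log2 2.43 ± 0.47 for Nelfa (adjusted p = 0.00294), 2.05 ± 0.40 for Nelfcd (adjusted p = 0.00297) and 1.85 ± 0.29 for Nelfe (adjusted p = 7.56e-04). For Supt16 the difference was -0.83 ± 0.24 (adjusted p = 0.0268); it was lost with no filter (adjusted p = 0.0532) and without Epi control replicate 1 or 2, Epi knockout replicate 3, PrE control replicate 3 or PrE knockout replicate 1 (log2 differences of -0.71 to -0.79, adjusted p = 0.0589 to 0.121).

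Among the rest of the machinery in PrE, 3 of 13 polymerase subunits rose in the double knockout and none fell, and of 29 initiation factors 7 rose and 1 fell. Of 14 Integrator subunits 4 rose, of 24 elongation factors 1 and of 8 P-TEFb genes 1, and none of these lists had a member that fell. Each of these shares was near or below the 26.6% of all tested genes called. Polr2c went from 68.3 ± 12.9 to 128 ± 5.95 TPM, Taf6 from 3.83 ± 3.44 to 13.5 ± 3.14 TPM and Ints11 from 15.6 ± 10.3 to 39.7 ± 12.2 TPM. These comparisons share the control PrE libraries with the cell type comparison above. Control PrE means and SDs of TPM in this paragraph again take replicates 1 and 2 as the averaged library. Set, a histone chaperone, fell like Supt16, from 4095 ± 492 to 1907 ± 149.6 TPM (log2 change -1.10). Of 18 histone chaperones other than FACT 4 rose and 2 fell in PrE, with a median log2 change of 0.44. In Epi 6 of the 18 fell and none rose, where 9.13% of all tested genes were called. Trophectoderm markers moved with the knockout in both tissues, with sums of 5147 to 6120 TPM against 1520 to 1653 TPM in Epi and 1909 to 2032 TPM against 490 to 758 TPM in PrE. PrE markers summed to 1797 to 2467 TPM against 1042 to 1100 TPM in PrE. Their part in these changes was not tested.

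In the screen the members changed about as often as other genes. Over 39 knockouts and 312 tests, 37 calls were made on members, or 11.9%, where 10.1% of the tests on all genes were called. Of the 37 calls 26 were lower and 11 higher, and 17 knockouts had at least 1. Nelfcd was called most often, in 9 knockouts, followed by Ssrp1 in 7, Nelfe in 6, Supt5 in 4, Nelfa, Nelfb and Supt16 in 3 each, and Gtf2b in 2. Median changes over the 39 knockouts lay between -0.28 for Nelfcd and 0.08 for Nelfb. Under every alternative processing tried, 10 of the 37 calls were kept. These were Nelfcd in Elf5, Ezh2, Kdm6b and Zfp57, Nelfe in Kdm6b and Tfap2c, and Supt5, Nelfb, Nelfe and Ssrp1 in Bend3 of batch 8. In 22 knockouts no member was called by limma. No call was kept under every alternative in the Nelfb, Kdm6a, Zbtb17 and batch 7 Bend3 groups, or in Hdac13 (Nelfe lower, 7.57% of all genes called), Ascl2 and Lmo2 (Nelfcd lower, 6.91% and 5.11%), Cxxc1 (Ssrp1 lower, 21.4%), Ets2 (Nelfb higher, 23.4%), Suz12 (Ssrp1 and Supt16 lower, 21.9%) and Sox4 (Supt5 higher, 1.23%).

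**Figure D4:**
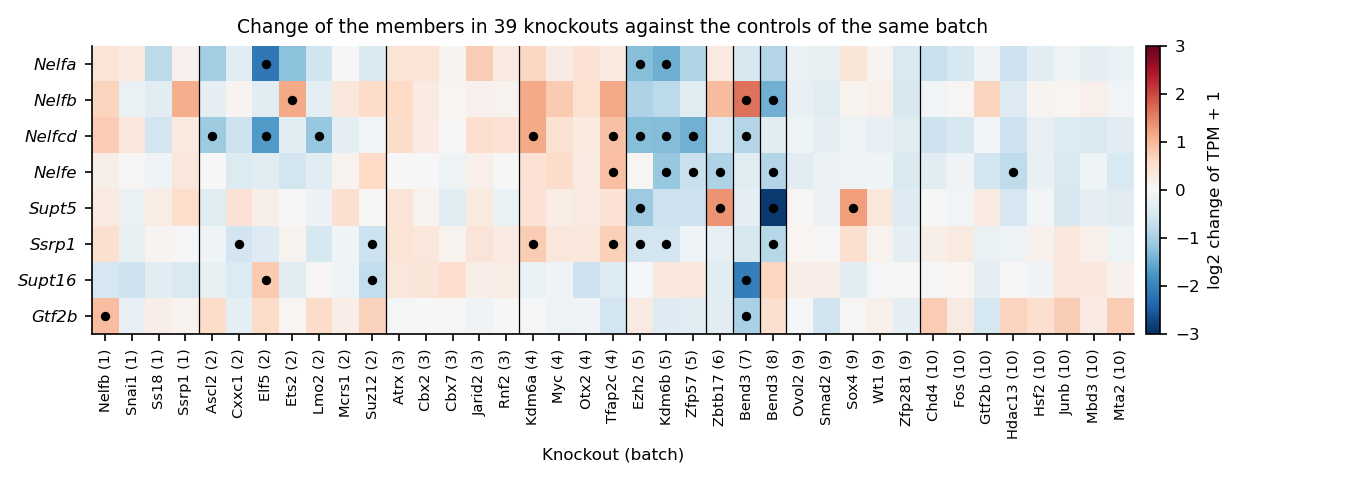
Log2 change of TPM + 1 (colour, red higher and blue lower) of the 8 members (rows) in 39 knockouts (columns, with the batch in brackets) against the controls of the same batch; black dots mark an adjusted p under 0.05 and lines divide the batches. The 37 dots fall in 17 columns, and the deepest blue is Supt5 in Bend3 of batch 8.

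Nelfcd fell in all 3 knockouts of batch 5, which share 3 control libraries at 90.0, 60.5 and 77.9 TPM. The targets of batch 5 were PRC2's catalytic subunit Ezh2, the H3K27 demethylase Kdm6b, and Zfp57, a protein that protects imprints. Ezh2 and Zfp57 transcripts were lower under their own labels, but Kdm6b did not pass the limma test under its label (2.85 to 6.12 TPM against 2.95 to 15.4 TPM, adjusted p = 0.219). In the Ezh2 knockout Nelfcd was at 28.6, 34.6 and 29.0 TPM (log2 change -1.27 ± 0.30, adjusted p = 4.49e-04; 4 of 8 members and 26.8% of all genes called). In the Kdm6b knockout it was at 22.6, 38.8 and 29.9 TPM (log2 change -1.31, adjusted p = 3.19e-04; 4 of 8 members and 22.7% called), and in the Zfp57 knockout at 30.7, 24.1 and 26.1 TPM (log2 change -1.45, adjusted p = 1.06e-04; 2 of 8 members and 16.8% called). All 9 knockout libraries were below all 3 controls. Nelfe fell in the Kdm6b knockout too, at 33.7, 28.9 and 40.8 TPM against 107, 73.7 and 56.4 TPM (log2 change -1.14 ± 0.24, adjusted p = 1.01e-04). Trophectoderm markers summed to 3340.5 to 5996 TPM in Ezh2, 1212 to 1259 TPM in Kdm6b and 2955 to 3808 TPM in Zfp57, against 2038 to 2295 TPM in the controls; their part was not tested.

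In batch 2, Nelfcd fell in the knockout of Elf5, a transcription factor of the trophoblast, to 30.5, 8.83 and 19.4 TPM from 61.5, 64.0 and 52.2 TPM (log2 change -1.70 ± 0.30, adjusted p = 2.41e-06; 3 of 8 members and 25.0% of all genes called). Nelfa was at 0.719, 18.0 and 6.67 TPM there against 26.4, 23.2 and 31.6 TPM in the controls (log2 change -2.14 ± 0.50, adjusted p = 4.77e-04). The low first library carried this call, which was lost without it (log2 change -1.21, adjusted p = 0.127). Supt16 was higher there (log2 change 0.79, adjusted p = 0.0175), a call lost without knockout replicate 1 (0.59, adjusted p = 0.193) or 3 (0.62, adjusted p = 0.106). In batch 4 the called members were higher. Nelfe rose in the Tfap2c knockout to 106, 117 and 107 TPM from 54.3, 62.0 and 57.5 TPM (log2 change 0.91 ± 0.24, adjusted p = 0.00372; 3 of 8 members and 13.5% of all genes called). Nelfcd rose in the libraries labelled Kdm6a knockout, in which Kdm6a itself did not pass (adjusted p = 0.313). Kdm6a is the other H3K27 demethylase of this family in the screen. Nelfcd was at 80.3, 98.0 and 69.1 TPM there against 32.4, 47.2 and 31.7 TPM (log2 change 1.14 ± 0.30, adjusted p = 0.00435; 2 of 8 members and 9.30% called). That call was lost without knockout replicate 2 (1.01, adjusted p = 0.0704). The Kdm6a and Kdm6b effects on Nelfcd come from different batches and their difference was not tested.

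Bend3, a protein of repressed chromatin, was targeted in batches 7 and 8, and the members moved differently in each. In batch 8 Supt5 was at 8.66, 9.31 and 10.5 TPM against 67.2, 71.8 and 91.6 TPM in the controls. This was the largest change of any member in the screen (log2 change -2.88 ± 0.33, adjusted p = 2.57e-12; 4 of 8 members and 28.6% of all genes called). Nelfb was at 33.1, 30.0 and 28.6 TPM against 66.5, 90.8 and 100.3 TPM (log2 change -1.44, adjusted p = 0.00724). Nelfe and Ssrp1 also fell, by a log2 0.89 and 0.86 (adjusted p = 0.00238 and 6.45e-04), with every knockout library below every control. Control means in batch 8 were the highest of the 10 batches for Nelfb (85.9 TPM), Nelfe (175 TPM) and Ssrp1 (242 TPM). Outside batches 7 and 8 the highest control means were 36.9, 92.6 and 167 TPM, and Supt5 means ran from 12.5 to 31.2 TPM. Knockout Nelfe was at 93.4, 87.1 and 96.5 TPM and Ssrp1 at 139, 121 and 133 TPM. The part of the high control levels in these calls was not tested. In the libraries labelled Bend3 knockout of batch 7, in which Bend3 itself was higher than in the controls, Supt5 did not pass (log2 change -0.28, adjusted p = 0.578). There Supt16 was at 16.1, 8.61 and 6.66 TPM against 37.1 and 51.3 TPM (log2 change -2.05 ± 0.29, adjusted p = 1.19e-08; 4 of 8 members and 38.8% of all genes called), a call lost when batch 7 was fitted on its own (adjusted p = 0.346), while its batch 8 change was 0.65 (adjusted p = 0.0524). Nelfb in batch 7 was at 6.59, 3.51 and 27.5 TPM against controls at 9.17 and 0 TPM. Its call (log2 change 1.64, adjusted p = 0.00460) rested on the control listed at 0, and without that library the change was -0.04; without knockout replicate 3 it was 0.87 (adjusted p = 0.192). Nelfcd and Gtf2b were lower in batch 7 (-0.87 and -0.98), and both calls were lost when a library was left out: Nelfcd without control replicate 1 (-0.70, adjusted p = 0.199) or knockout replicate 3 (-0.49, adjusted p = 0.210), and Gtf2b without control replicate 2 (-0.84, adjusted p = 0.0904). A test of batch 8 minus batch 7, chosen after seeing the data, passed for 4 of 8 members, where 31.2% of all tested genes passed: Supt16 at 2.69 ± 0.39, Supt5 at -2.60 ± 0.49, Nelfb at -3.08 ± 0.65 and Gtf2b at 1.45 ± 0.41. Without control replicate 2, Nelfb (-1.36, adjusted p = 0.157) and Gtf2b (0.99, adjusted p = 0.136) no longer passed. Batch 7 and batch 8 differed in stage by their titles and in control levels, so stage and batch cannot be told apart.

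GSK-J4 changed 1 member over its 2 stages, Supt16. At E4.5, 0 of 8 members passed the limma test, where 1.15% of all tested genes did, and 2 had an unadjusted p under 0.05. Nelfe was at 53.5, 73.4 and 72.0 TPM against 122, 159 and 141 TPM, with no overlap (log2 change -1.08 ± 0.27, adjusted p = 0.102). Nelfb was at 17.7, 16.1 and 12.4 TPM against 29.6, 31.9 and 65.6 TPM, again with no overlap (log2 change -1.32 ± 0.51, adjusted p = 0.314). At E5.0, 1 of 8 members changed, where 28.3% of all tested genes did. Supt16 was at 125, 105 and 104 TPM in treated Epi and at 183, 173 and 167 TPM in the controls (log2 change -0.65 ± 0.12, adjusted p = 0.00623). Its call was kept under all 12 alternatives. Nelfe at E5.0 overlapped between groups (81.9, 71.4 and 106 TPM against 91.4, 104 and 76.7 TPM). Of 18 histone chaperones other than FACT 9 fell and 2 rose, with Set going from 2277 ± 72.0 to 898 ± 53.4 TPM (log2 change -1.34, adjusted p = 1.15e-05). PrE markers summed to 1036 to 1235 TPM in treated and 15.4 to 20.1 TPM in control Epi at E5.0, and 11 of 11 tested rose; at E4.5 they summed to 911 to 1014 TPM against 936 to 979 TPM. Epiblast markers at E5.0 summed to 579 to 735 TPM against 1585 to 1638 TPM, with 4 of 9 tested lower and 3 higher. Trophectoderm and extraembryonic ectoderm markers at E4.5 summed to 1433 to 1463 TPM against 1860 to 1995 TPM, with 4 of 10 tested lower and none higher. The part of these markers in the member values at either stage was not tested.

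Zbtb17, a zinc finger factor that partners with Myc, was targeted in 4 settings. In screen batch 6, where Zbtb17 itself did not pass (log2 change 0.65, adjusted p = 0.487), Supt5 was at 53.9, 46.8 and 23.7 TPM against 12.3, 19.1 and 13.6 TPM (log2 change 1.35 ± 0.33, adjusted p = 5.78e-04; 2 of 8 members and 30.4% of all genes called). Nelfe there was at 60.2, 44.1 and 35.8 TPM against 82.3, 107 and 76.0 TPM (log2 change -0.92 ± 0.24, adjusted p = 0.00141). The groups did not overlap for either gene, and both calls were lost when batch 6 was fitted on its own (adjusted p = 0.111 and 0.0915). With dTAG at E5.0, which degrades a tagged protein so that the transcript is no check of it, 2 of 8 members changed, where 11.7% of all tested genes did. Nelfb was at 46.0, 24.2 and 39.7 TPM against 10.6, 16.8 and 12.4 TPM (log2 change 1.37 ± 0.30, adjusted p = 0.0163), and Nelfcd at 96.5, 80.8 and 101 TPM against 54.8, 61.4 and 70.1 TPM (log2 change 0.57 ± 0.16, adjusted p = 0.0419). Supt5 was at 42.0, 31.1 and 32.2 TPM against 20.7, 20.4 and 9.35 TPM (log2 change 1.09 ± 0.32, adjusted p = 0.0536). The Nelfb call was lost without control replicate 55 or 57 or dTAG replicate 1 or 3 (adjusted p = 0.0526 to 0.0745), and the Nelfcd call without any of these or control 56 (adjusted p = 0.0524 to 0.134). Trophectoderm markers summed to 3558 to 3972 TPM with dTAG and 2692 to 2907 TPM without, and 8 of 11 rose; PrE markers summed to 102 to 122 TPM against 10.6 to 18.8 TPM. Their part was not tested.

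In the E4.5 Zbtb17 table, 5 of 8 members could be tested and 0 passed, with 0 at an unadjusted p under 0.05, where 0.131% of all tested genes passed. Nelfa, Nelfb and Nelfcd were listed at 0 in most libraries. Supt16 was at 453, 586 and 0 TPM in the controls and 17.6, 205 and 71.9 TPM in the perturbed libraries, so single libraries spanned the whole range. Zbtb17 itself was listed at 0 in all 3 controls, so the label could not be checked there.

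The EB table carries no gene names. Its genes were named by the row order of the screen, which the E5.0 GSK-J4 and Suz12 Eed tables share over 25006 genes. The E4.5 tables and the Zbtb17 dTAG table held 25229 genes and were not used for this. Mean log levels correlated with the screen at r = 0.884 in that order and at 0.106 or less with rows shifted. Each EB value therefore rests on that match. In the wild-type EB course all 8 members were higher on day 1 than on day 0, where 97.6% of all tested genes changed, 91.4% were higher and the median over all genes was 2.80. Supt5 went from 1.13 and 1.73 to 151 and 157 TPM (log2 change 6.00 ± 0.10, adjusted p = 3.12e-15), and Ssrp1 from 3.04 and 2.99 to 216 and 217 TPM (log2 change 5.76). The 4 NELF subunits rose by a log2 4.68 to 5.30, and Supt16 by 4.39. Gtf2b went from 10.0 and 11.3 to 44.2 and 48.6 TPM (log2 change 2.02 ± 0.08), less than the median gene. With quantile normalization, which moved the median over all genes by -2.42, Gtf2b was lower on day 1 (-1.30, adjusted p = 2.92e-08) and the other 7 were still higher, by 0.94 to 2.67. All 8 were also higher on days 2 and 3 than on day 0, where 97.5% and 97.7% of all tested genes changed. Day 0 libraries held fewer genes than the later days, as given above. The 10 most abundant genes made up 33.4 and 33.2% of the TPM in wild-type libraries on day 0, and 6.91 and 6.94% on day 1. TPM is scaled to the library total, and the part of this in the rises was not tested. From day 1 to day 2, 3 of 8 rose, where 56.0% of all tested genes changed: Nelfcd from 65.4 and 58.5 to 85.7 and 83.1 TPM (log2 change 0.44, adjusted p = 3.41e-04), Ssrp1 from 216 and 217 to 261 and 265 TPM (0.28, adjusted p = 0.00341) and Nelfb (0.25, adjusted p = 0.0407). Ssrp1 was not called without wild-type replicate 1 or 2 (adjusted p = 0.0798 and 0.0980), and Nelfb without any one of the 4 replicates (adjusted p = 0.0609 to 0.226). From day 2 to day 3, 1 of 8 rose, where 44.1% of all tested genes changed: Nelfe, from 81.5 and 77.7 to 89.4 and 92.5 TPM (0.19, adjusted p = 0.0104; without wild-type replicate 2, 0.13, adjusted p = 0.220).

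**Figure D5:**
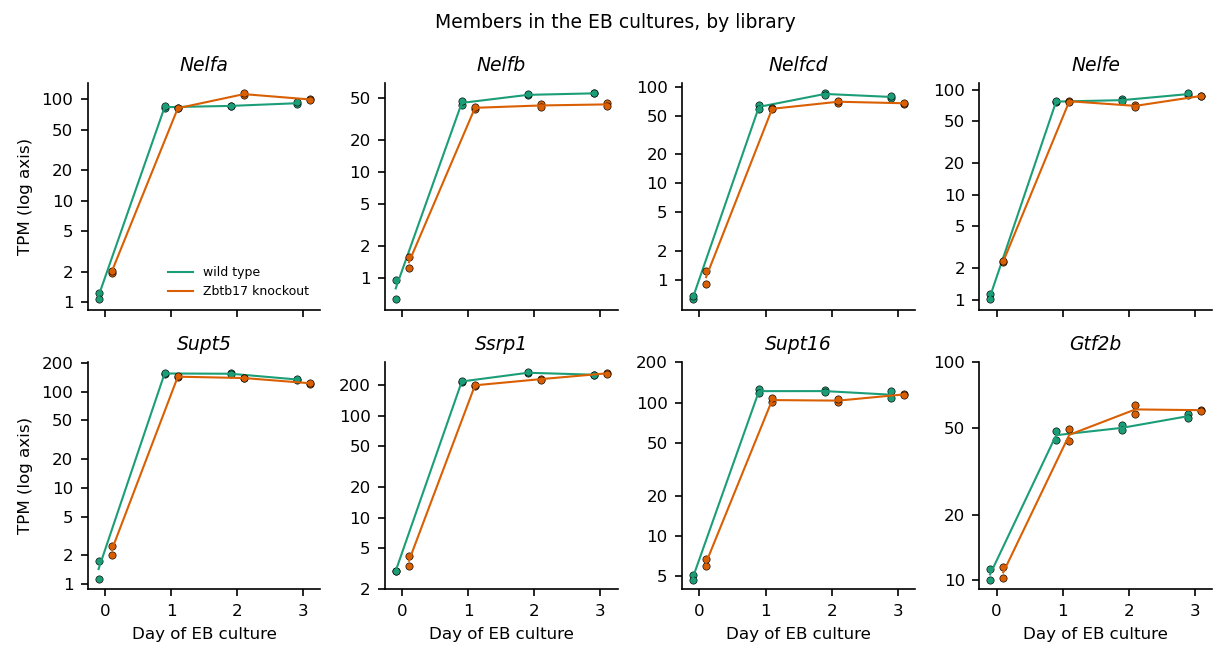
TPM (vertical axes, logarithmic) of each member on days 0 to 3 of EB culture in wild-type (green) and Zbtb17 knockout (orange) libraries; points are libraries, 2 a group, and lines join group means. All members are lowest on day 0, and Nelfa is higher in the knockout on day 2.

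Members differed by small amounts in Zbtb17 knockout EB against wild-type EB. As given above, a knockout effect cannot be told apart from a difference between cell lines. On day 0, 6 of 7 tested members were higher, where 59.8% of all tested genes changed and 47.8% were higher; their levels were 1.24 to 6.70 TPM in the knockout, and Nelfcd was under the filter. With quantile normalization only Nelfa (0.33) and Nelfe (0.59) stayed called on day 0, and Ssrp1 turned to -0.03. On day 1, 1 of 8 was lower (Supt16), where 36.5% of genes changed. On day 2, 7 of 8 changed, where 42.8% of genes did: Nelfa and Gtf2b were higher and Nelfb, Nelfcd, Nelfe, Ssrp1 and Supt16 lower. Nelfa was at 110.3 and 115 TPM against 85.7 and 86.5 TPM (log2 change 0.38 ± 0.06, adjusted p = 1.90e-04). The log2 changes of the 5 lower members lay between -0.33 for Nelfb (43.9 and 41.0 TPM against 52.8 and 54.1 TPM) and -0.18 for Nelfe. On day 3, 2 of 8 were lower, where 55.1% of genes changed: Nelfb (log2 change -0.34, adjusted p = 0.00893) and Nelfcd (-0.21, adjusted p = 0.0295). The 16 calls over the 4 days became 6 without wild-type replicate 1, 8 without knockout replicate 1, 9 without wild-type replicate 2 and 7 without knockout replicate 2. Nelfa on days 0 and 2 and Nelfe on day 0 were called under every alternative in which they were tested. On day 0 both were under the filter at 5 TPM and were not tested with it. The Nelfa effect on day 2 exceeded that on day 1 by 0.41 ± 0.08 (adjusted p = 0.00276; without knockout replicate 2, 0.39 and 0.0620), where 19.9% of genes passed, and the day 3 effect was below that of day 2 by a log2 change of -0.26 ± 0.08 (adjusted p = 0.0403), where 17.4% passed; without any one of the 4 replicates it did not pass (-0.21 to -0.30, adjusted p = 0.0972 to 0.261). Trophectoderm markers summed to 317 to 318 TPM in the knockout and 86.7 to 96.8 TPM in the wild type on day 2; their part was not tested.

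Over 146 screen libraries, with each batch's mean taken out, the 4 NELF subunits correlated positively with one another (r of 0.22 to 0.51) and Supt16 negatively with each of them (-0.20 to -0.43). Among the 28 pairs of members Pearson's r ran from -0.43 for Nelfb with Supt16 to 0.51 for Nelfa with Nelfcd, with a median of 0.23. Ssrp1 with Supt16, the 2 FACT subunits, had an r of 0.06. Supt5 was closest to Nelfb (0.42) and Ssrp1 (0.41), and Gtf2b had no r above 0.15 with another member. Among 7083 genes, those most like Nelfa were Clptm1 (0.65), Zfp869 (0.64) and Arhgdia (0.62), and those most like Nelfcd were Sgta (0.64), Ube2v1 (0.64) and Scamp4 (0.62). Nelfb was most like Dpp3 (0.60), Cyb5r3 (0.58) and Chmp6 (0.57), and Nelfe most like Tuba1a (0.55), Pebp1 (0.52) and Dcakd (0.52). Supt5 was most like Sf3a2 (0.66), Wbp11 (0.65) and Ubald1 (0.64), the first 2 encoding splicing factors. Ssrp1 was most like Cct3 (0.63), Sf3b2 (0.62) and Gart (0.61), and Supt16 most like Mapk1ip1l (0.52), Amt (0.52) and Nasp (0.51), the last a histone chaperone. Gtf2b was most like Zfp386 (0.43), Nmnat1 (0.42) and Srsf3 (0.42). These values are descriptions over libraries that share batches, controls and how much of the transcriptome each holds.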

How the data were processed

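TPM values were used as deposited by the authors. The tools Cufflinks, StringTie (2.2.1) and HISAT2 (2.2.1) and the build mm10 are named, per the submitters' processing notes, without their roles. There are 7 tables, treated as normalized separately. All but 1 name genes; the EB table does not and follows the row order of the screen table (r = 0.884 between their mean log levels in that order, at most 0.106 with rows shifted by 1 to 5). TPM + 1 was taken to log2 and tested with limma 3.58.1 in R 4.3.3 (group means, moderated with a mean-variance trend, two-sided, Benjamini-Hochberg over all genes of a comparison), on genes at 1 TPM or more in as many libraries as the smaller group held; a call is an adjusted p under 0.05. Log2 changes of TPM + 1 understate changes of low genes. On simulated data with 200 changed genes, 34% of genes with a log2 change of 1 and 73% of those with 2 were recovered for GSK-J4 at E5.0, and 52% and 95% for the Nelfb knockout. The changed genes were drawn from those well above the filter in the controls, and each gene had the same spread in all groups. These shares therefore do not cover members at low levels or groups with a wider spread. Same-numbered libraries were checked for pairing in 49 comparisons; with 3 pairs, every pair correlated over 0.1 only for Suz12 Eed in Epi. Named genes were the members, up to 3 called genes per pathway list with the smallest adjusted p, and the 3 genes most like each member at 5 TPM or more. One gene that this rule names is not reported here. Members and lists were chosen with earlier results of these data known. Figures were drawn with matplotlib 3.10.9.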

Additional observations from a re-analysis of the deposited data

Results flagged for a closer look

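In all, 10 differences between effects passed the limma test of the difference itself. The Suz12 Eed effect in PrE minus that in Epi was 2.43 for Nelfa, 2.05 for Nelfcd, 1.85 for Nelfe and -0.83 for Supt16 on the log2 scale, with adjusted p = 0.00294, 0.00297, 7.56e-04 and 0.0268. The first 3 were kept under all 18 alternatives tried on them, and that of Supt16 was lost under 6. The Bend3 effect in batch 8 minus that in batch 7, a test chosen after seeing the data, was -3.08 for Nelfb, 2.69 for Supt16, -2.60 for Supt5 and 1.45 for Gtf2b (adjusted p = 8.55e-05, 2.15e-08, 9.27e-06 and 0.00406). Without control replicate 2 the difference was -1.36 for Nelfb and 0.99 for Gtf2b, and Gtf2b was also lost with library weights. The titles gave these batches different stages. In batch 7 the libraries labelled Bend3 knockout had Bend3 above the controls, and in batch 8 below them. The Zbtb17 effect on Nelfa in EB was larger on day 2 than on day 1 by 0.41 (adjusted p = 0.00276; not called without knockout replicate 2) and changed by -0.26 from day 2 to day 3 (adjusted p = 0.0403); the second was lost under 6 of 10 alternatives.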

How the results depend on the processing

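Of 106 member calls over all comparisons, 49 were kept under every alternative in which they were tested. Another 54 were lost under some and 5 reversed under some, with overlap between these counts. The alternatives were a pseudocount of 0.1 TPM, no filter, a filter at 5 TPM, quantile normalization, library weights, a replicate block, fits on only the groups compared, and 45 fits that left out replicates. The count for Suz12 Eed in Epi, 1, became 2 with the replicate block and 2 with the PrE controls kept apart, and 0 to 2 with a replicate left out. The block changed no other count by over 1.5 times. For Zbtb17 dTAG, 2 calls became 1 with the smaller pseudocount, 0 with no filter, 1 with quantile normalization and 0 to 2 with a replicate left out. For the Zbtb17 knockout in EB, 16 became 9 with the smaller pseudocount, 6 with quantile normalization and 6 to 9 with a replicate left out. GSK-J4 at E5.0 had 1 to 2 with a replicate left out. Quantile normalization brought Gtf2b under its own label to -0.75 (adjusted p = 0.0454). It reversed Ssrp1 in EB day 0 (-0.03) and Gtf2b in wild-type EB on days 1, 2 and 3 against day 0 (-1.30, -1.12 and -0.89). Nelfb in Bend3 of batch 7 ranged from -0.04 to 3.31 with a replicate left out, the lowest without control replicate 2. The cause was not tested. Quantile normalization moved the median over all genes by more than 0.1 in 24 of 59 comparisons, from -2.42 to 0.35. No block could be fitted for dTAG, whose groups share no numbers, and the wild-type course was left out of the block fit. With no read counts, how depth limits low members such as Nelfb is unknown.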
